A study of Mus musculus with 8 samples.

Results

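GC-rich single promoters were defined as the 1 kb to either side of the 5′-most start of a protein-coding gene, with at least 55% GC and with no other protein-coding start on the opposite strand within 1 kb. The rule used gene models and reference sequence alone and no DRIP signal. It selected 5462 of the 21951 protein-coding starts of the mouse genome. Of the remaining starts, 14105 were GC-poor single promoters and 2384 were head-to-head promoters, which face a divergent neighbour. In 84 of the 5462 windows a second protein-coding start lay on the same strand, so that some peaks were counted at more than 1 promoter.

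RNA:DNA hybrids were mapped by immunoprecipitation of restriction-digested DNA with the S9.6 antibody, and sequenced (DRIP-seq). The cells were mouse embryonic fibroblasts (MEFs). All cells carried floxed Rtel1 alleles, which encode a helicase that unwinds G-quadruplexes, and a doxycycline-inducible wild-type RNaseH1-GFP transgene, which encodes a nuclease that removes the RNA of hybrids. Infection with GFP adenovirus served as control (GFP cells), and Cre-GFP adenovirus was used to delete Rtel1 (Cre cells). At 48 h the cells received 2 µg/ml doxycycline (DOX) or mock treatment, and they were collected 48 h later. The groups, GFP mock and GFP DOX, then Cre mock with Cre DOX, had 1 library each, made from 3 pooled immunoprecipitations, and runs of 4 values below keep this order. The labels name 1 cell line and no animal or clone. With 1 library per group no difference between groups could be set against replicate error, no test between groups was made, and a difference of genotype or treatment cannot be told apart from one of library.

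GC-rich promoters mostly lie in CpG islands, which escape DNA methylation and often lack a TATA box at many housekeeping and developmental genes. Nascent G-rich RNA there can pair again with its C-rich template and form an R-loop, in which the G-rich coding strand is displaced. A displaced strand with several runs of guanines can fold into a G-quadruplex (G4). An excess of G over C on the coding strand after the start, called GC skew, is known to favour R-loops.

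The windows had a median GC content of 58.5% and a ratio of observed to expected CpG of 0.672 (median), against 47.8% and 0.281 at GC-poor single promoters. A predicted G4, a stretch with a mean G4Hunter score of at least 1.5 in windows of 25 bases, lay in 99.3% of member windows and in 76.8% of GC-poor ones. Below are the strongest predicted G4s outside annotated untranslated regions in 5 promoters whose peaks are described later. The first 4 promoters had a peak in every list, and the last had a peak in both mock lists alone. Each is written 5′ to 3′ on its G-rich strand in mm10 (GRCm38) coordinates, and capitals mark runs of at least 3 guanines.
Kpnb1 (chr11:97187239-97187308, plus strand): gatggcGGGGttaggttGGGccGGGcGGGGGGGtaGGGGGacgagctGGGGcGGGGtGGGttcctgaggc
H2afz (chr3:137865340-137865384, plus strand): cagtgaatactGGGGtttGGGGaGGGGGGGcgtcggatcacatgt
Ubtf (chr11:102319811-102319845, plus strand): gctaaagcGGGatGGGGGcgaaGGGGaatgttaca
Nap1l1 (chr10:111472827-111472875, plus strand): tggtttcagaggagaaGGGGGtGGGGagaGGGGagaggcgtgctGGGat
Kcnd3 (chr3:105451997-105452059, minus strand): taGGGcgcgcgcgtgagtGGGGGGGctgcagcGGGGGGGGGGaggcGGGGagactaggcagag

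The G4s of H2afz and Nap1l1 lay on the coding strand, and those of Kpnb1, Ubtf and Kcnd3 on the template strand. Those of H2afz and Kpnb1 were centred 876 and 608 bp after the start, and those of the other 3 genes lay before it. Their G4Hunter scores were 2.56 for Kpnb1, 2.52 for H2afz, 1.84 for Ubtf, 2.36 for Nap1l1 and 2.68 for Kcnd3. A predicted G4 is a description of the letters and not a measured structure.

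A second set shows whole peaks, because the narrowest peaks of high score can be read base by base. They are written on the strand of the gene, and capitals mark stretches that reached the G4 threshold within the peak sequence alone, where runs of C stand for G-rich sequence on the opposite strand. The first bases of the Reep1 peak and the last of the Aqp12 peak also belong to predicted G4s that extend beyond the peak and are left in lower case. The peak at Trrap is that of GFP DOX, those at Reep1 and Aqp12 were called in Cre mock alone, that at Emsy in GFP mock alone, that at Map2k7 in GFP DOX alone and that at Hnrnpr in Cre DOX alone.
Trrap (chr5:144767462-144767568, plus strand): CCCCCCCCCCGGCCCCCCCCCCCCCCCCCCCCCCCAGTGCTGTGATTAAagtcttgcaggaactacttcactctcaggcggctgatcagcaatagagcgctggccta
Reep1 (chr6:71708040-71708223, plus strand): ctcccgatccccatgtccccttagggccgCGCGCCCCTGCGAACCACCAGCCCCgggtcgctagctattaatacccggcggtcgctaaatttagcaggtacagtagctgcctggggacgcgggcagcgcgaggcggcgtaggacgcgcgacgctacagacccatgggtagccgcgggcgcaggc
Aqp12 (chr1:93005369-93005509, plus strand): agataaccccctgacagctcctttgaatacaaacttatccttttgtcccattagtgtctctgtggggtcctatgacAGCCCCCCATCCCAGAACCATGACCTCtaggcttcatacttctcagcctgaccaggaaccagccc
Emsy (chr7:98657012-98657139, minus strand): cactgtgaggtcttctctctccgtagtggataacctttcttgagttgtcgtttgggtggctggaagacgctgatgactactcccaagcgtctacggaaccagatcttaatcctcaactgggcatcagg
Map2k7 (chr8:4237926-4238032, plus strand): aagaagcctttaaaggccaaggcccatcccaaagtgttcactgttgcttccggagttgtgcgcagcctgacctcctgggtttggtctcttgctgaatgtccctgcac
Hnrnpr (chr4:136309932-136310144, plus strand): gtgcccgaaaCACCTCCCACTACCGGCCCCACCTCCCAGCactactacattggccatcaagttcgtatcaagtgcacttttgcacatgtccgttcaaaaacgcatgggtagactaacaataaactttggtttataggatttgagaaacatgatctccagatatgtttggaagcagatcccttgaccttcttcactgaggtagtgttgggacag

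The Trrap peak began in a long run of cytosines, and 50.5% of its bases were repeat-masked. The Reep1 peak was 68.5% GC and held a predicted G4 on the template strand. The peaks at Aqp12 (51.1% GC) and Hnrnpr (46.5% GC) each held a C-rich stretch past the G4 threshold, and those at Emsy (50.8% GC) and Map2k7 (54.2% GC) held no stretch that did.

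Across the series the lists held 87613, 60219, 91097 and 105081 peaks, and the narrowest peak was 106, 107, 132 and 213 bp wide, respectively. Peak lists carry no read totals, so depth is unknown, and the lists may differ in stringency. Scores (10 times the −log10 q-value, with rare exceptions) are not normalised between lists, and peaks are ranked within their own list. The starts of Rtel1 and of the endogenous Rnaseh1 were GC-poor and had no peak in any list, which does not check the deletion or the transgene. Of the loci that the study assayed by DRIP-qPCR, Actb was a member with a peak in all lists (scores of 20, 28, 38 and 38), and Bcl6 was a head-to-head promoter with a peak in Cre DOX (score 14). Of 10 fibroblast markers, 4 had a promoter peak in at least 1 list (Col1a1, Vim, S100a4 and Fn1), as did 4 of 5 epithelial markers (Cdh1, Krt8, Krt18 and Cldn7), 1 of 4 blood markers (Cd68), 1 of 4 neural markers (Map2) and no endothelial marker of 4. Vim was the only fibroblast marker among the members, against 4 of the 5 epithelial ones. In the 4 lists 3, 4, 3 and 2 of the 10 fibroblast markers had a peak, and 2, 1, 1 and 0 of the 5 epithelial markers did.

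GC-rich single promoters held a peak more often than GC-poor single promoters and than all protein-coding starts in every list. In GFP cells a peak overlapped 2877 of 5462 members with mock treatment (52.7%, exact 95% confidence interval 51.3 to 54.0%) and 2407 with DOX (44.1%, 42.7 to 45.4%). In Cre cells it overlapped 3128 with mock treatment (57.3%, 55.9 to 58.6%) and 2195 with DOX (40.2%, 38.9 to 41.5%). These and all further intervals are exact Clopper-Pearson intervals and cover counting error only. The share was highest in Cre mock and lowest in Cre DOX. The same promoters were counted in every list and each group had 1 library, so the intervals do not weigh the lists against each other. At GC-poor single promoters the shares were 11.0%, 8.29%, 14.1% and 10.7% in the same order, and over all protein-coding starts 23.3%, 19.6%, 28.0% and 20.1%. Head-to-head promoters of at least 55% GC, 1055 in number, lay near the members with 46.6%, 46.5%, 62.5% and 45.7%. Their share was higher than that of members in both Cre lists, with intervals that did not overlap, and in GFP DOX, with intervals that did, and it was lower in GFP mock. With peaks of the top decile of scores alone, the filter that the study applied, the shares of members were 7.12%, 6.17%, 10.2% and 4.56%, against 3.14%, 2.80%, 4.59% and 2.25% of all protein-coding starts. At least 1 list had a peak at 4130 members (75.6%, 74.5 to 76.7%), against 24.6% of GC-poor single promoters. Of head-to-head promoters of at least 55% GC 78.1% had one.

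**Figure D1:**
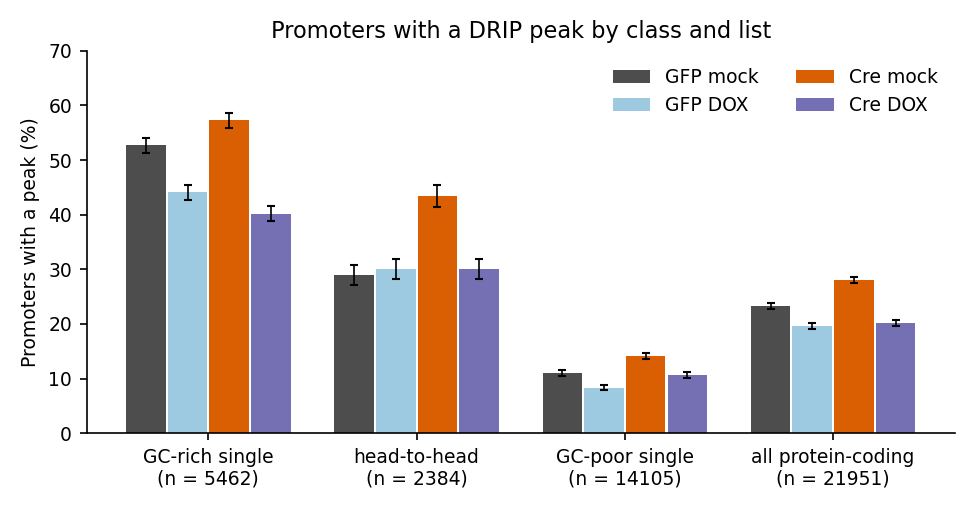
Share of promoters with a peak (vertical axis, percent) in 3 classes of protein-coding promoter and over all starts, for the 4 lists. Bars are shares of the promoters given under each class, and whiskers are exact 95% intervals that cover counting error only. Shares at GC-rich single promoters run from 40.2% in Cre DOX to 57.3% in Cre mock, and those at GC-poor ones from 8.29% to 14.1%.

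These promoters accounted for a small part of each list. There were 3240 peaks at members in GFP mock (3.70% of the list) and 2777 in GFP DOX (4.61%). Cre mock had 3637 (3.99%) and Cre DOX 2514 (2.39%). Their median width was 434, 459, 532 and 628.5 bp in that order, and the peaks elsewhere in the same lists had medians of 290, 347, 337 and 511 bp. Member peaks were richer in GC than their windows, with medians of 68.8%, 66.1%, 65.4% and 62.9%. Fewer than 3% of them were mostly repeat-masked (1.94%, 1.87%, 1.62% and 2.27%), whereas of peaks elsewhere 66.1%, 66.1%, 56.3% and 77.0% were. The member windows themselves held few masked bases, with a median of 9.45%. Among member peaks, 11.9%, 12.0%, 15.4% and 9.75% belonged to the top decile of scores of their list, with ties. The other peaks gave 10.4%, 10.4%, 10.5% and 10.8%. The highest scores at members were 192, 123, 138 and 143, far under the highest elsewhere (1697, 1615, 2406 and 2235).

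Peaks lay mainly after the start, over the first part of the transcribed region. Their midpoint was downstream in 69.0% (67.4 to 70.6%) of member peaks with mock treatment and 65.5% (63.7 to 67.3%) with DOX in GFP cells. In Cre cells it was downstream in 65% (63.4 to 66.5%) with mock treatment and 61.1% (59.2 to 63.0%) with DOX. The median offset of the midpoint was 209, 177.5, 184.5 and 162.25 bp downstream. Coverage was highest 100 to 200 bp after the start, where a peak covered 27.1%, 22.5%, 32.0% and 21.2% of members. At 500 bp upstream 9.43%, 11.3%, 15.1% and 13.3% were covered, and at 500 bp downstream 21.8%, 18.6%, 26.5% and 18.8%. GFP mock thus had the lowest coverage of the 4 lists at 500 bp upstream, although its coverage at the start was second only to Cre mock. At GC-poor single promoters the coverage never exceeded 5.16%, reached in Cre mock at 200 bp downstream.

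**Figure D2:**
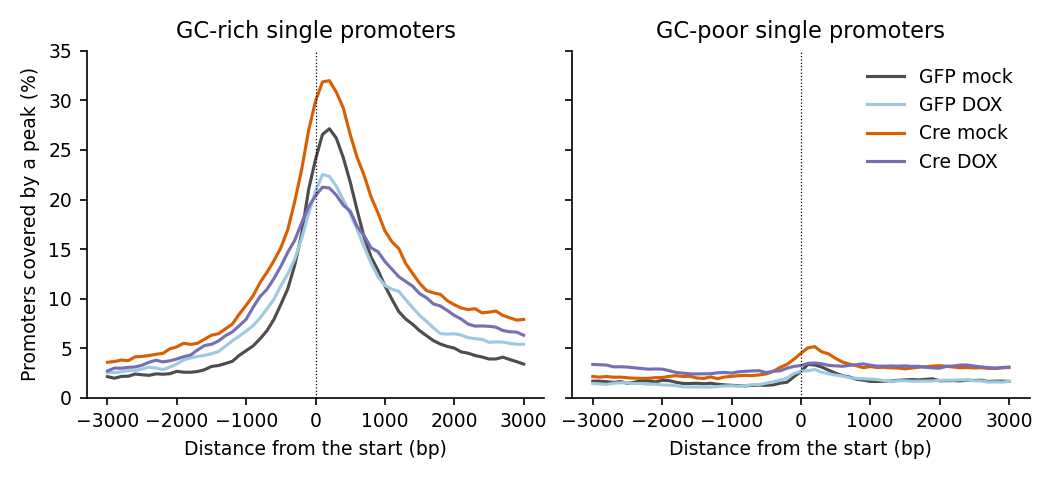
Share of promoters covered by a peak (vertical axis, percent) by distance from the start in bp (positive is downstream) at GC-rich single (left) and GC-poor single promoters (right), in steps of 100 bp, 1 line per list. All 4 lines on the left peak at 100 or 200 bp, between 21.2% in Cre DOX and 32.0% in Cre mock, and fall off more steeply upstream than downstream.

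Members with a peak in every list and members with none were about as many as each other, and the remaining members had a peak in 1 to 3 lists. All 4 lists had a peak at 1272 members (23.3%, 22.2 to 24.4%), while 8.87% of all protein-coding starts did. No list had a peak at 1332 members (24.4%, 23.3 to 25.5%), against 59.1% of all starts. With top-decile peaks alone 38 members (0.696%) had a peak in every list, against 0.405% of all starts and 0.853% of these head-to-head promoters. A single list had one at 1070 members (19.6%, against 15.7% of all starts), 2 lists at 915 (16.8%, against 8.97%) and 3 lists at 873 (16%, against 7.30%).

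A peak in Cre mock alone was found at 417 members (7.63%, against 6.17% of all protein-coding starts), and one in GFP mock alone at 366 (6.70%, against 4.48%). Cre DOX alone had one at 144 (2.64%, against 3.05%), as did GFP DOX alone at 143 (2.62%, against 2.00%). A peak in both mock lists and in neither DOX list was found at 320 members (5.86%, against 2.67% of all starts). Both Cre lists and neither GFP list had one at 136 members (2.49%, against 1.81%). Both DOX lists and neither mock list had one at 53 members (0.970%, against 0.542%). For a peak in Cre DOX alone the members lay under the share of all starts, and for every other combination of lists with a peak they lay above it.

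**Figure D3:**
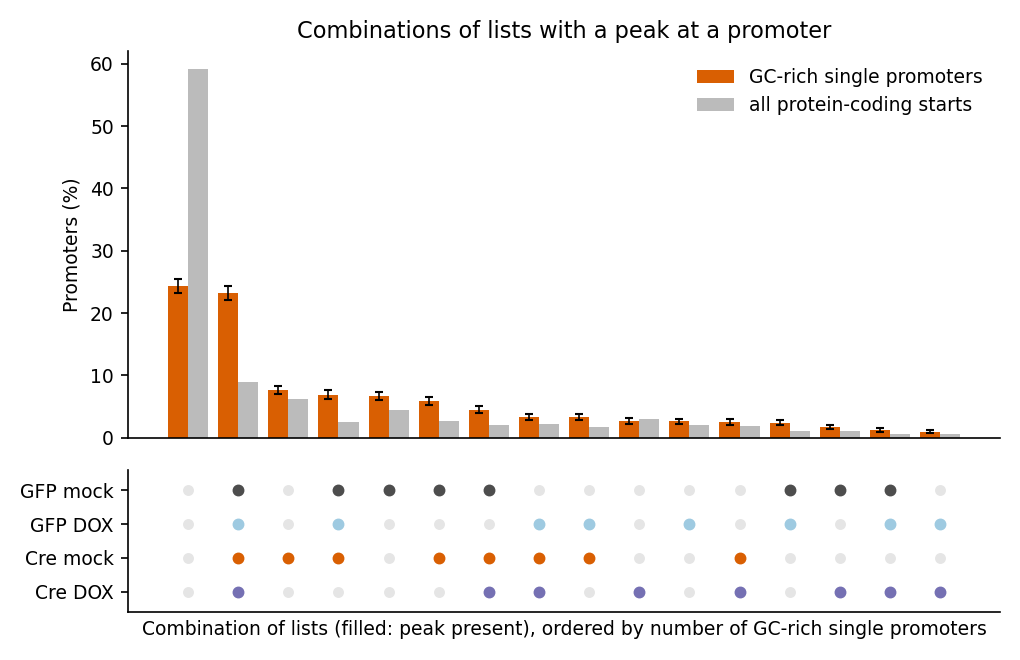
Share of GC-rich single promoters (orange, whiskers are exact 95% intervals) and of all protein-coding starts (grey) with each of the 16 combinations of lists with a peak. Filled dots below each pair of bars show the lists that had a peak. The combinations of no list (24.4%) and all lists (23.3%) hold the most GC-rich single promoters.

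Without doxycycline, the Cre list exceeded the GFP list at the members. A peak in Cre mock and none in GFP mock was found at 913 members (16.7%, against 11.9% of all starts), and the reverse at 662 (12.1%, against 7.23%). With doxycycline the order was turned, with 620 members in Cre DOX and not GFP DOX (11.4%, against 7.98%) and 832 in GFP DOX and not Cre DOX (15.2%, against 7.41%).

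Fewer members had a peak in the DOX list than in the mock list of either genotype. In GFP cells 1026 members had a peak in mock and none in DOX (18.8%, against 10.3% of all starts), and 556 the reverse (10.2%, against 6.48%). In Cre cells 1294 had a peak in mock and none in DOX (23.7%, against 13.2%), and 361 the reverse (6.61%, against 5.32%). Of members with a peak in the mock list, 35.7% (33.9 to 37.4%) had none in the DOX list in GFP cells and 41.4% (39.6 to 43.1%) had none in Cre cells. Over all starts these shares were 44.0% and 47.2%, at GC-poor single promoters 62.6% and 58.6%, and at head-to-head promoters 36.6% and 42.7%. The difference between the genotypes was not tested. When the same number of highest-scoring peaks was taken from every list, the order of the GFP lists turned, with 40.9% of members in GFP mock and 44.1% in GFP DOX, whereas Cre mock (45.3%) stayed above Cre DOX (24.4%).

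The strength of the mock peak went with its presence after doxycycline. Among members whose mock peak ranked in the top 10% of its list, 19.8% had no peak in GFP DOX and 28.1% none in Cre DOX. Among those with a mock peak in the lower 50%, 48.8% and 57.5% had none. The shares moved likewise with the GC content of the window. From 55 to 57.5% GC, 47.7% of GFP mock promoters had no peak in GFP DOX and 51.8% of Cre mock promoters none in Cre DOX. At 65% GC and over, 17.1% and 19.3% had none. The same held between the mock lists, where a peak of Cre mock had no counterpart in GFP mock at 42.3% of members of 55 to 57.5% GC and at 6.86% of those of at least 65% GC. Over all members this share was 29.2%, and over all protein-coding starts it was 42.5%. The parts of strength, sequence and treatment in these shares were not tested.

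Promoters with a peak in every list had stronger and wider peaks than those with a peak in 1 list. In Cre mock the median width was 1092.5 bp and 27.6% of best peaks were in the top 10% of the list for the former, against 296 bp and 6.24% for promoters of Cre mock alone. In GFP mock the values were 742.5 bp and 19.1% against 305 bp and 4.64%. In GFP DOX they were 745 bp and 19.4% against 237 bp and 2.80%, and in Cre DOX 951.5 bp and 16.2% against 403 bp and 3.47%.

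Within the class, GC content went with the presence of a peak. Of 2047 members with 55 to 57.5% GC, 37.5%, 30.1%, 43.3% and 27.9% had a peak. Of the 71 members with at least 70% GC, 97.2%, 87.3%, 94.4% and 87.3% had one. Cre mock lay above GFP mock in every bin below 62.5% GC and in none from there upwards. At 62.5 to 65% GC GFP mock had 77.5% and Cre mock 75.5%, and at 65 to 70% GC both had 87.9%. The same promoters were counted in both lists, with 1 library each, and this difference was not tested. The CpG ratio ran the same way. In GFP mock 35.6% of members with a ratio under 0.4 had a peak and 73.2% of those with at least 0.8, and in Cre DOX 23.2% and 61.5%. Promoters on either side of the threshold differed by less than the ends of this range. Of the 933 with 55 to 56% GC, 32.3%, 26.5%, 40.9% and 25.6% had a peak, and of the 911 single promoters with 54 to 55% GC just outside the class 25.2%, 21.5%, 33.9% and 22.9% had one. The nearest members inside, 2410004B18Rik and 4931440F15Rik, had 55.0% GC and a peak in 2 lists and 1 list. Zfp827 and Zhx2, nearest outside, also had 55.0% GC after rounding and a peak in 4 and 2 lists.

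The restriction fragment that held the start also went with the presence of a peak. The 5 enzymes used to digest the DNA have 4946871 sites in the reference, and the median fragment at a member was 2139.5 bp long, against 1275 bp at GC-poor single promoters. The share of members with a peak rose from 36.9% to 70.7% in GFP mock between fragments under 1000 bp (528 members) and fragments of at least 4000 bp (563 members). In GFP DOX it rose from 27.3% to 66.6%, in Cre mock from 38.6% to 79.9% and in Cre DOX from 22% to 65.9%. The trend was also present at like GC content. Among members of 55 to 57.5% GC, Cre mock had a peak at 34.1% of 1067 with a fragment under 2000 bp, at 46.5% of 553 with 2000 to 3000 bp and at 62.1% of 427 with at least 3000 bp. In GFP DOX these shares were 23.0%, 30.7% and 47.3%.

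**Figure D4:**
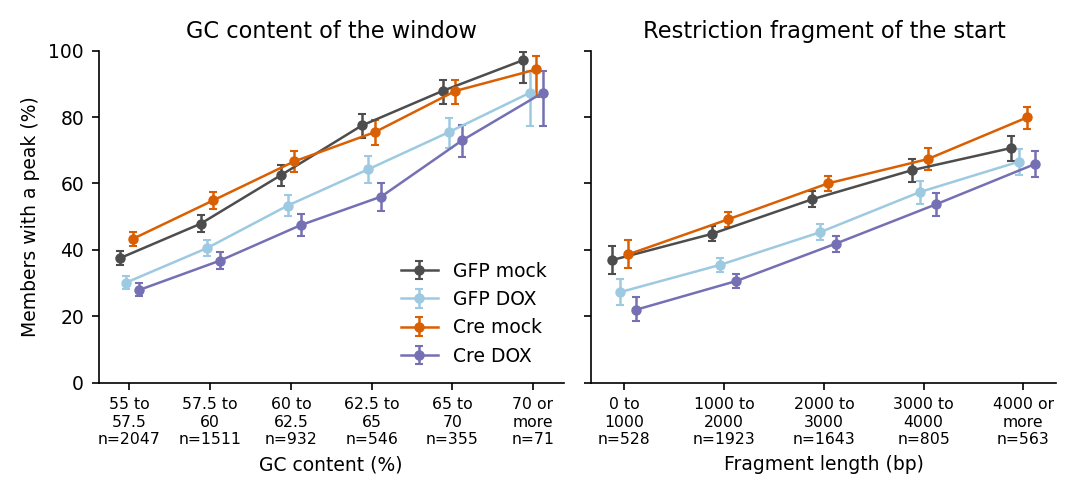
Share of GC-rich single promoters with a peak (vertical axis, percent) by GC content of the window (left) and by length of the restriction fragment that holds the start (right), 1 line per list, with the number of promoters under each bin. Whiskers are exact 95% intervals for counting error. In every list the share in the last bin exceeds that in the first, in GFP mock from 37.5% to 97.2% with GC and from 36.9% to 70.7% with fragment length.

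Edges of wide member peaks lay near restriction sites more often than edges of narrower ones did. Of the edges of member peaks of at least 1000 bp, 37.4% (34.5 to 40.3%), 42.1% (39.3 to 44.9%), 44.0% (41.7 to 46.2%) and 46.1% (43.5 to 48.6%) were within 200 bp of a site. The midpoints of the same peaks were that close to a site in 3.94%, 5.39%, 3.55% and 4.08%. A peak this wide with no site inside cannot have its midpoint within 200 bp of one. The width alone thus keeps these midpoint shares low, and they are no reference for the edges. Among peaks under 1000 bp the edges gave 16.1%, 16.8%, 19.6% and 18.8%, and the midpoints 11.7%, 12.3%, 13.1% and 11.5%. Both edges of 1 peak are not independent, and the intervals do not account for this. Wide peaks made up 17.2%, 22.7%, 26.4% and 30.2% of member peaks, and a site lay inside 25.8%, 42.8%, 42.1% and 50.5% of them.

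Predicted G4s on the coding strand downstream of the start were more frequent where peaks were found. Such a G4 lay in 87.3% (85.3 to 89.0%) of the promoters with a peak in all lists and in 72.7% (70.2 to 75.1%) of those with none. On the template strand downstream the shares were 75.8% and 64.9%. Upstream of the start they were 67.5% and 64.6% on the coding strand, with overlapping intervals, and 71.0% and 60.7% on the template strand. Promoters with and without peaks also differ in GC content, with medians of 61.1% and 57.1%. At 55 to 57.5% GC, Cre mock had a peak at 46.6% of 1544 members with a downstream coding-strand G4 and at 33.0% of 503 without one. GFP DOX had 32.0% and 24.5%. At 60 to 62.5% GC the GFP DOX shares were 56.1% of 758 with and 41.4% of 174 without. At 62.5 to 65% GC they were 64.1% of 462 with and 65.5% of 84 without. The other lists in this last bin had the higher share with the G4. GFP mock had 78.8% against 70.2%, Cre mock 76.4% against 70.2% and Cre DOX 56.7% against 52.4%. The intervals of the last bin overlapped in every list.

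The median GC skew over the 500 bp downstream was 0.049 at members with a peak in all lists and 0.027 at those with none, and the skew was positive at 65.9% and 60.4% of them. Of the 427 members with a skew of at least 0.2, 57.4%, 52.5%, 62.1% and 48.2% had a peak. Of the 621 with a skew under -0.1, 55.4%, 41.4%, 56.8% and 40.1% had one. The intervals of these extremes overlapped in both mock lists and in Cre DOX, and did not in GFP DOX (47.6 to 57.3% against 37.5 to 45.4%). Among members of 55 to 57.5% GC, a skew of at least 0 went with a higher share than a skew under 0 in Cre mock (45.5%, 42.9 to 48.2%, against 38.6%, 34.9 to 42.5%) and in Cre DOX (29.8%, 27.4 to 32.3%, against 23.9%, 20.7 to 27.3%). In both GFP lists at this GC content, and in all lists at higher GC content, the intervals overlapped.

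Motifs were counted from 250 bp upstream to 50 bp downstream of the start, on both strands. The GC box GGGCGG, the site of Sp and KLF factors, was found in 73.5% of members and in 43.0% of all protein-coding promoters. Its share was 79.0% (76.7 to 81.2%) in members with a peak in all lists, 69.2% (66.7 to 71.7%) in those with none and 74.8% (70.4 to 78.9%) in those of Cre mock alone. The TATA box TATAAA lay in 5.47% of members against 12.6% of all promoters, and the CCAAT box CCAAT in 33.2% against 39.0%. The ETS motif CGGAAGT lay in 5.47% of members and 7.77% of all promoters, and the YY1 motif AAGATGG in 5.14% and 6.22%. The E-box CACGTG lay in 9.94% and 7.75%, and the cyclic AMP response element TGACGTCA in 2.73% and 2.43%. Of these 7 motifs the GC box alone had intervals that did not overlap between members with a peak in all lists and with none. The GC box overlaps with GC content itself, which was not separated here.

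The share of promoters with a peak ranged widely between chromosomes of like GC content. Chromosome 11, with 470 members, had a peak at 66.0%, 58.1%, 68.7% and 49.6%, and at 32.6% in all lists. Chromosome 12, with 205 members and a median GC content of 59.3% against 58.6% on chromosome 11, had 41.0%, 27.3%, 41.0% and 26.3%, and 11.7% in all lists. Chromosome X, with 118 members, had 33.9%, 27.1%, 42.4% and 27.1%. Chromosome 1 had more promoters with a peak in GFP mock (62.8%) than in Cre mock (58.8%), and on chromosome 3 Cre mock (69.6%) lay above GFP mock (55.3%).

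The 6 promoters with the highest ranks in all lists were those of Asmt, Kpnb1, Trrap, H2afz, Ubtf and Nap1l1. Kpnb1 encodes importin β1, the carrier of nuclear import, and its window had 68.9% GC. Its peaks scored 74, 71, 72 and 73, and they were 2605 to 3856 bp wide and overlay the start. H2afz, the gene of the histone variant H2A.Z, had scores of 56, 70, 62 and 78, within the first 2.18%, 0.961%, 1.71% and 0.408% of the lists. It had a GC skew of 0.294 and 9 predicted G4s on the coding strand, and 3 on the template strand.

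Ubtf, which encodes a transcription factor of RNA polymerase I, had scores of 52, 51, 59 and 65. Its peaks were 7194, 7779, 7733 and 7569 bp wide, longer than the restriction fragment of 5613 bp that held the start, and reached far into the gene. Nap1l1, a nucleosome assembly chaperone, had scores of 52, 48, 49 and 51 and widths of 2029 to 2650 bp. The left edges of the Nap1l1 peaks lay between 111471927 and 111472072 on chromosome 10.

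Trrap, a scaffold of histone acetyltransferase complexes, had scores of 109, 73, 62 and 65. All its peaks covered the run of cytosines printed above, and the GFP mock and GFP DOX peaks ended within 1 bp of each other. Asmt, which encodes the last enzyme of melatonin synthesis, lies on chromosome X and had scores of 192, 98, 138 and 90. Its restriction fragment runs into 650000 unresolved bases of the assembly, so its length is unknown.

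Peaks in a single list were narrow at most of the named promoters. In Cre mock alone, Reep1, which encodes a protein that shapes the endoplasmic reticulum, had a peak of 184 bp in an intron (score 78, within the first 0.985% of the list). Aqp12, an aquaporin gene, had one of 141 bp upstream (score 62). Edn3, the gene of the peptide endothelin 3, had one of 146 bp over the start (score 53), and Slc16a9, of the monocarboxylate transporter family, one of 137 bp over the start (score 46). These 4 peaks were 137 to 184 bp wide, and the narrowest peak of their list was 132 bp.

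In GFP mock alone, Pou4f3, a transcription factor gene of inner-ear hair cells, had a peak of 482 bp (score 71), Emsy, a BRCA2-binding repressor, one of 128 bp (score 51) and Ppm1d, a phosphatase that damps p53 signalling, one of 106 bp (score 42). The midpoint of the Ppm1d peak lay 1010.5 bp after the start, just outside the window. In GFP DOX alone the scores were 30 at Wscd2, 29 at Map2k7, a kinase of the JNK pathway, and 28 at Glp1r, the receptor of glucagon-like peptide 1. These peaks were 107, 107 and 124 bp wide. In Cre DOX alone, Flvcr2, a membrane transporter gene, had a peak of 792 bp over the start (score 44). Hnrnpr, an RNA-binding protein gene, had one of 213 bp (score 40) and Dnajb2, a co-chaperone gene, one of 240 bp (score 39).

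Among promoters with a peak in both mock lists alone, Kcnd3, a potassium channel gene of 67.1% GC, had scores of 40 and 48 (GFP mock first). Mapk3, which encodes the kinase ERK1, had scores of 37 and 44, and its peak was 144 bp wide in GFP mock and 1021 bp in Cre mock. Ankrd34b had scores of 48 and 34 in peaks of 115 and 140 bp.

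Among promoters with a peak in both Cre lists alone, Cckbr, a receptor of gastrin and cholecystokinin, had scores of 62 in Cre mock and 50 in Cre DOX. Its peaks of 1676 and 1731 bp lay upstream and only their edge entered the window, with midpoints at -1801.5 and -1788 bp from the start. Ap3d1, a subunit of the adaptor complex AP-3, had scores of 28 and 32 in peaks of 132 and 396 bp. Gm20518, a predicted gene, had scores of 25 and 28 in peaks that did not overlap each other.

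**Figure D5:**
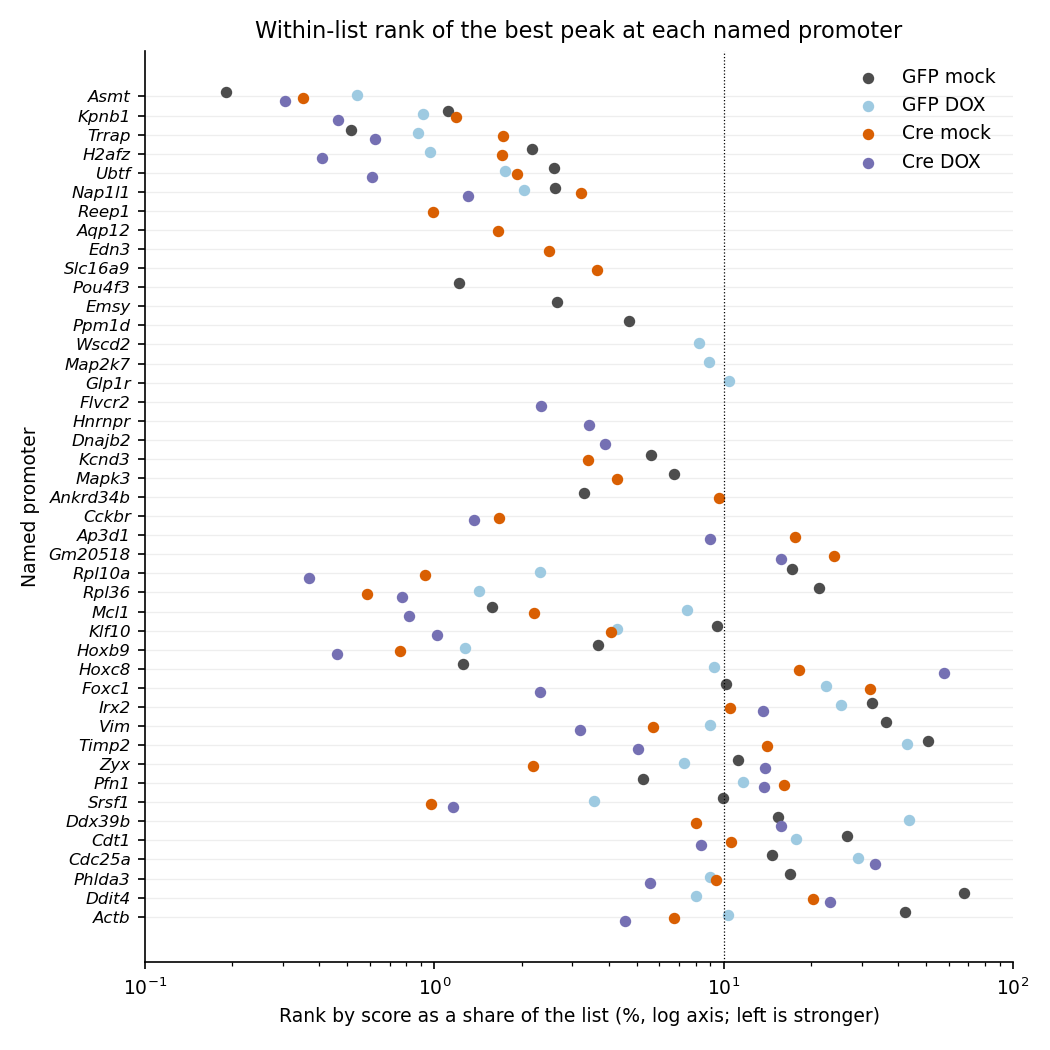
Rank by score of the best peak at each named GC-rich single promoter as a share of its list (horizontal log axis, percent), 1 point per list with a peak, and a dotted line at the top 10%. The first 6 genes, with a peak in every list, lie between 0.189% (Asmt, GFP mock) and 3.21% (Nap1l1, Cre mock), and the points of Rpl10a and Rpl36 in GFP mock lie to the right of their other points.

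Genes of 9 functional groups were examined for members. Of 79 cytosolic ribosomal protein genes 11 were members, with a peak at 7, 8, 9 and 10. The count was thus highest in Cre DOX, where the count over all members was lowest. These counts are 63.6%, 72.7%, 81.8% and 90.9%, against 52.7%, 44.1%, 57.3% and 40.2% of all members. Peaks lay in all lists at 7 of the 11 (63.6%, 30.8 to 89.1%), against 23.3% of all members. Rpl10a, of the large subunit, had scores of 28, 46, 81 and 82. Rpl36, also of the large subunit, had scores of 26, 57, 103 and 60. Both ranked lower in GFP mock (within the first 17.3% and 21.4%) than in Cre mock (0.924% and 0.583%), and their peaks were 1885 and 1267 bp wide in GFP mock and 3306 and 4095 bp in Cre mock.

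Of the immediate early and growth-response genes 25 were members, and 16, 16, 17 and 14 of them had a peak in the 4 lists. In percent these are 64.0%, 64.0%, 68.0% and 56.0%, against the shares of all members just given, and 12 (48.0%, 27.8 to 68.7%) had a peak in all lists, against 23.3%. Mcl1, an inhibitor of apoptosis, had scores of 64, 31, 56 and 59. Klf10, a zinc-finger factor induced by TGF-β, had scores of 34, 37, 45 and 55 in peaks over the gene body, 2025 to 2420 bp wide. Actin, tubulin and motility genes had 29 members, with a peak at 20, 23, 21 and 21 (69.0%, 79.3%, 72.4% and 72.4%) and at 14 in all lists (48.3%, 29.4 to 67.5%). Zyx, a focal adhesion gene, had scores of 32, 31, 56 and 29. Pfn1, which encodes the actin-binding profilin 1, had scores of 41, 27, 29 and 29. Its GFP mock peak of 607 bp lay upstream and only its edge entered the window, while the others lay over the gene.

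Like all members, developmental regulators had fewer promoters with a peak in the DOX list than in the mock list of either genotype. Among 21 Hox members, which specify position along the body axis, 16, 11, 14 and 10 had a peak (76.2%, 52.4%, 66.7% and 47.6%, against 52.7%, 44.1%, 57.3% and 40.2% of all members), and 7 had one in all lists (33.3%, against 23.3%). Hoxb9 had scores of 46, 60, 89 and 73 in peaks of 4422 to 6676 bp, and Hoxc8 had 70, 29, 28 and 17. The GFP mock peak of Hoxc8 began after the start, whereas its other peaks overlay the start. Among 55 members that encode other developmental transcription factors, 31, 22, 24 and 14 had a peak. In percent these were 56.4%, 40.0%, 43.6% and 25.5%. All lists had a peak at 9 (16.4%, 7.77 to 28.8%), against 23.3% of all members, although their median GC content of 60.2% exceeded that of all members. Foxc1, a forkhead factor gene, had scores of 33, 22, 23 and 44, and Irx2, a homeobox gene, had 22, 21, 33 and 29. The Cre DOX peak of Foxc1 lay mostly upstream of the start, whereas its other peaks reached into the coding region.

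Collagen and fibroblast matrix genes had 19 members, with a peak at 10, 9, 12 and 10 (52.6%, 47.4%, 63.2% and 52.6%, against 52.7%, 44.1%, 57.3% and 40.2% of all members) and at 5 in all lists (26.3%, against 23.3%). Vim, which encodes the intermediate filament vimentin, had scores of 21, 29, 40 and 41. Timp2, an inhibitor of matrix metalloproteinases, had 18, 18, 30 and 37, and its Cre DOX peak lay upstream of the start while the others lay over the gene.

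Few genes of R-loop and replication functions had promoters of this class, with 6 of 41 and 5 of 52, against 5462 of 21951 protein-coding starts. Ribosomal protein genes were likewise few, with 11 of 79. Of the R-loop and replication genes 10 and 16 had head-to-head promoters. The R-loop and replication members were too few to set against the other members. All of them had a peak in at least 1 list, as did 75.6% of all members. Srsf1, a splicing factor whose loss is known to raise R-loops, had scores of 33, 39, 79 and 53. Ddx39b, a helicase of mRNA export, had 29, 18, 36 and 28. Cdt1, a replication licensing factor, had 24, 24, 33 and 33. Cdc25a, a phosphatase that drives the cell cycle, had no peak in Cre mock and scores of 29, 20 and 22 in the other lists. Of 29 p53 response genes 11 were members, with a peak at 7, 8, 8 and 7 (63.6%, 72.7%, 72.7% and 63.6%, against 52.7%, 44.1%, 57.3% and 40.2% of all members). Phlda3, a p53 target that restrains AKT, had scores of 28, 29, 34 and 36 in peaks of up to 9530 bp, and Ddit4, an inhibitor of mTOR signalling, had 16, 30, 27 and 25. The GFP DOX peak of Ddit4 lay upstream of the start. Each score is that of the best-ranked peak of its list in the window, and these peaks did not always overlap between lists. The groups are small, their genes were not compared by a test, and scores of different lists were not normalised to each other.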

How the data were processed

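DRIP-seq was performed on 4 libraries, with 4 input libraries that were not analysed here. The authors trimmed, aligned (BWA, mm10) and filtered the reads with the nf-core/chipseq pipeline and called peaks with MACS2 in each library. The deposited lists are in broad format, although the stated command names narrow peaks, and whether inputs served as control is not stated. Broad calling joins nearby stretches and so widens peaks. The deposited score is 10 times the −log10 q-value, rounded down, in more than 99.99% of the peaks of every list. The authors' lists also hold a fold, the ratio of signal to background, and both significance columns as deposited, −log10 of the p-value and of the q-value, come from the caller. None is normalised between libraries, and depth is unknown.

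Starts came from GENCODE M21 and sequence from GRCm38, matched to the lists by chromosome names and lengths. The study kept peaks of the top decile of scores. Here all peaks overlapping a window by 1 bp counted, with that filter as an alternative. Shares have exact Clopper-Pearson intervals (95%). G4s were scored with G4Hunter (window 25, threshold 1.5, runs up to 4). Overlaps and G4s were tested on simulated data. The Python libraries numpy 2.4.6, pandas 2.3.3 and scipy 1.17.1 were used.

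Named were the 6 best-ranked promoters in all lists, the 4 best of Cre mock alone and 3 of each other single list, 3 each for both mock and both Cre lists, 2 of each gene group, Rtel1, Rnaseh1, Bcl6 and Actb, and 2 on each side of the GC threshold. Members, lists and gene groups were chosen with earlier results of these data known, and motifs, fragment edges and shares by GC or rank were added afterwards. Alternatives changed the peaks, overlap, window, GC threshold, neighbouring starts, chromosomes and G4 definition. A further G4 sequence is not reported here.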

Additional observations from a re-analysis of the deposited data

Results flagged for a closer look

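The difference between Cre and GFP cells in the share of GC-rich single promoters with a peak had opposite signs without and with doxycycline. It was 4.60 percentage points without and -3.88 with doxycycline. At head-to-head promoters of at least 55% GC it was 15.8 and -0.853 points, over all protein-coding starts 4.69 and 0.565 points, and at GC-poor single promoters 3.08 and 2.38 points. For peaks in the top decile of scores it was 3.09 and -1.61 points, with 4.74 and -1.23 at the head-to-head promoters, 0.461 and -0.106 at the GC-poor ones and 1.45 and -0.547 over all starts. With equal numbers of peaks from each list it was 4.34 and -19.6 points, with 14.0 and -18.4, 2.03 and -2.57, and 3.64 and -7.90 in these classes. The turned sign was thus not particular to the members. With equal numbers of peaks the difference of DOX from mock also had opposite signs, 3.15 points in GFP cells and -20.8 points in Cre cells, against 12.7 and -19.7, 0.518 and -4.08, and 2.11 and -9.43 in the same classes. Each group had 1 library, and none of these differences was tested.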

How the results depend on the processing

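No paired analysis was possible because every group had 1 library. Values keep the order of the report (both GFP lists first, mock before DOX). The results were the share of members with a peak, the share of peaks that lay at members, the share of midpoints downstream, the shares of members with a peak in all lists and in Cre mock alone, and, of members with a peak in 1 list of a pair, the share with it in the first list. The last were 58.0% for Cre mock against GFP mock, 64.9% for GFP mock against GFP DOX, 78.2% for Cre mock against Cre DOX and 57.3% for GFP DOX against Cre DOX. Values that stayed within the main interval are left out below, and the cause of a move was not tested.

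With top-decile peaks alone 7.12%, 6.17%, 10.2% and 4.56% of members had a peak, 4.19%, 5.26%, 5.72% and 2.17% of peaks lay at members, and 72.1%, 68.7%, 69.1% and 65.3% had the midpoint downstream. A peak in all lists was left at 0.696% and in Cre mock alone at 5.27%. The pairs gave 63.0% for Cre mock against GFP mock, 55.1% for GFP mock against GFP DOX and 61.4% for GFP DOX against Cre DOX. Downstream coding-strand G4s lay at 89.5% of promoters with a peak in all lists and 78.6% of those with none.

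When the −log10 q-value had to reach 2, the shares with a peak were 28.8%, 19.2%, 36.3% and 18.9%, the first 3 lists had 4.4%, 5.54% and 4.93% of peaks at members and 72.5%, 68.3% and 68.0% of midpoints downstream. A peak in all lists was found at 6.52% and in Cre mock alone at 10.7%. The pairs gave 63.8%, 69.9%, 81.5% and 50.8% in the order above, and 75.5% of promoters with no peak had the G4.

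With equal numbers of peaks the shares with a peak were 40.9% in GFP mock, 45.3% in Cre mock and 24.4% in Cre DOX, and 14.5% had a peak in all lists. Of peaks, 4.06% in GFP mock and 4.52% in Cre mock lay at members, and 70.7% in GFP mock and 63.2% in Cre DOX had the midpoint downstream. The pair of GFP mock against GFP DOX turned to 44.3%, Cre mock against Cre DOX gave 83.9% and GFP DOX against Cre DOX 84.4%.

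With the midpoint inside the window the shares with a peak were 50.3%, 41.0%, 53.2% and 36.1%, those of peaks 3.4%, 4.05%, 3.54% and 2.02%, that in all lists 18.2% and the pair of mock lists 54.8%. With 500 bp either side they were 46.7%, 38.8%, 51.2% and 35%, then 2.99%, 3.65%, 3.2% and 1.87%, and 18.4% in all lists. With 2 kb they were 57.2%, 48.4%, 62.2% and 45.5%, then 4.59%, 5.91%, 5.16% and 3.15%, 27.5% in all lists and 67.1% of GFP mock midpoints downstream. With at least 60% GC they were 72.8%, 61.9%, 74.2% and 56.1%, then 1.84%, 2.28%, 1.81% and 1.18%, 39.4% in all lists and 5.2% in Cre mock alone. The pairs were then 52.7% for Cre mock against GFP mock, 70.4% for GFP mock against GFP DOX and 60% for GFP DOX against Cre DOX, and 76.1% of promoters with no peak had the G4.

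The share of peaks at members was 10.0%, 12.3%, 8.55% and 9.42% of peaks at most 50% repeat-masked. It was 3.13%, 3.86%, 3.39% and 2.01% without members facing a start of any gene, and 4.44% in GFP DOX and 3.86% in Cre mock with an overlap of at least 100 bp. On autosomes alone all 20 results stayed within the main intervals. The downstream coding-strand G4 shares, for a peak in all lists and for none, were 53.4% and 32.2% at a G4Hunter score of at least 2, and 62.7% and 38.9% with a regular expression for G runs.

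Of the 46 listings of named promoters, 19 changed the number of lists with a peak under the top-decile filter, 15 with the midpoint rule, and at most 5 under any other alternative. Every value rests on 1 library per group with an unknown number of reads, so that differences of depth, library and treatment cannot be told apart.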
